A study of Homo sapiens with 14 samples.

Results

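The genes described here are 50 listed DNA repair genes, of 61541 genes in the count table. They were chosen by name for their roles in homologous recombination, the Fanconi pathway, mismatch repair and end joining, and each symbol was matched to its Ensembl identifier. All 50 were matched, and all 50 passed the filter on low counts, among 19181 genes tested. By role they fell into 9 groups: 6 genes around BRCA1 and BRCA2, 8 recombination paralog and RAD54 family genes, 11 Fanconi genes, 4 of mismatch repair, 3 RecQ helicases, 4 checkpoint kinases, 4 of break resection, 5 of classical end joining and 5 of single-strand and alternative repair.

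The RNA data are 6 libraries labelled BxPC-3, a human pancreatic cancer cell line. In 3 of them the genotype is given as WT and the treatment as shControl, a control short hairpin RNA. The other 3 are labelled HDAC5 knockdown, treated with shHDAC5, a hairpin against the class IIa histone deacetylase HDAC5. GATA1 binding was measured by ChIP-seq in PANC-1, another pancreatic cancer line, under the same 2 treatments, and all samples are labelled day 3.

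Cells mend broken DNA along several routes. Homologous recombination copies the intact sister strand and works mainly in S and G2 phase, when a sister is present: the break ends are resected, and BRCA1, PALB2 and BRCA2 prepare them for strand exchange. Classical end joining ligates the ends directly at any point of the cycle, the Fanconi proteins unhook crosslinks between the strands, and mismatch repair corrects copying errors. Many recombination and crosslink repair genes are transcribed from the G1/S border onward under E2F transcription factors, so their mRNAs are known to be more abundant in dividing cells.

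The RNA libraries held between 15179758 and 17854340 counts. HDAC5 mRNA went against its label, at 94.9 ± 2.99 in libraries labelled shControl against 164 ± 4.44 under the shHDAC5 label (CPM, the count scaled to a common library size; SD, n = 3 each). Every direction below is therefore between libraries as labelled. GATA1 mRNA was low, at 0.344 ± 0.093 against 2.85 ± 0.438 CPM (SD, n = 3 each). Among markers of pancreatic epithelium, KRT8 (717 and 1010 CPM) and KRT18 (404 and 327 CPM) were high under both labels. KRT7 (371 and 25.3 CPM, log2 fold change -3.87) and MUC1 (166 and 11.3 CPM, -3.88) fell by more than any of the 50 repair genes. EPCAM (1.84 and 1.99 CPM) and CDH1 (1.43 and 1.32 CPM) were low, and KRT19 was near 0 (0.0215 and 0.0947 CPM). Of the 8 markers listed 7 were tested, of which 3 fell and 2 rose. SMAD4, which BxPC-3 is known to have lost, was at 49.6 and 46.8 CPM. CDKN2A, also known to be deleted in that line, was at 149 and 13.7 CPM (log2 fold change -3.45). Both genes' levels go against the label. The line is named here only as the label states it, and its identity was not tested. Whether libraries with the same treatment grew as separate cultures is not stated, so a p-value here reflects library-to-library spread alone, and that spread may be technical. The median log2 fold change of all tested genes was 0.09 with TMM scaling, and it was 0.12 with RLE, 0.23 with upper-quartile and 0.27 with total-count scaling.

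The promoters of 9 repair genes are printed because they carry the ends of the distribution: the 4 genes with the largest fall, the 4 with the largest rise, and MSH3, the only one with a GATA1 peak summit within 1 kb of a listed start at q of at most 0.05. Each runs 5′ to 3′ along the gene's strand, from 250 bases before to 50 bases after the RefSeq start (GRCh38.p14). Capitals mark matches to an E2F site or a CCAAT box on either strand. No match to the CHR element, a sequence found in promoters of cell cycle genes, was found in these 9. The first 4 fell in libraries labelled shHDAC5: RAD51AP1 (chr12:4538640-4538939, plus strand), BRCA1 (chr17:43125315-43125614, minus), FANCD2 (chr3:10026187-10026486, plus) and RAD51D (chr17:35119709-35120008, minus). The next 4 rose: FANCB (chrX:14873020-14873319, minus), LIG4 (chr13:108218300-108218599, minus), RAD52 (chr12:949645-949944, minus) and RAD51C (chr17:58692352-58692651, plus). MSH3 (chr5:80654402-80654701, plus) did not pass the test.
RAD51AP1: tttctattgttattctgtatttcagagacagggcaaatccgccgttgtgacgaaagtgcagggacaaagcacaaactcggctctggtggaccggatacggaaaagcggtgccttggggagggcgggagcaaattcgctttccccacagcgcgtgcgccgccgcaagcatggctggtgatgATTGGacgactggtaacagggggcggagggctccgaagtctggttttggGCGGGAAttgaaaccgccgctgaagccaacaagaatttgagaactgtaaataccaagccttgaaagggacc
BRCA1: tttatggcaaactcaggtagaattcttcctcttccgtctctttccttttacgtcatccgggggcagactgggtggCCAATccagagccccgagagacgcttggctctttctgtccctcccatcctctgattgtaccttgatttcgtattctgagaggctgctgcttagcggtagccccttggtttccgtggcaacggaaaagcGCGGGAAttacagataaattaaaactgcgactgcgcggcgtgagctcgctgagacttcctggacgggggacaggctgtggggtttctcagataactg
FANCD2: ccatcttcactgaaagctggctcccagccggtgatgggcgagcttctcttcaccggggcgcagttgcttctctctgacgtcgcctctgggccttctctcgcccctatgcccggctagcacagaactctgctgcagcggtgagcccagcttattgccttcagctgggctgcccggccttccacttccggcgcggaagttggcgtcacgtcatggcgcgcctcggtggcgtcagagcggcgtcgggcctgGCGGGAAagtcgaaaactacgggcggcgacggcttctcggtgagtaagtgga
RAD51D: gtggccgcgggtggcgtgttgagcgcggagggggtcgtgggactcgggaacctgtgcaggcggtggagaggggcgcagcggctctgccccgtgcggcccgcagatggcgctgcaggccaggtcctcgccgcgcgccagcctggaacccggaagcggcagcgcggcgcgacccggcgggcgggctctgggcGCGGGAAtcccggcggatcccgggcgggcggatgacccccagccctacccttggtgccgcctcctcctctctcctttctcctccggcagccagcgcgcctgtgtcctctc
FANCB: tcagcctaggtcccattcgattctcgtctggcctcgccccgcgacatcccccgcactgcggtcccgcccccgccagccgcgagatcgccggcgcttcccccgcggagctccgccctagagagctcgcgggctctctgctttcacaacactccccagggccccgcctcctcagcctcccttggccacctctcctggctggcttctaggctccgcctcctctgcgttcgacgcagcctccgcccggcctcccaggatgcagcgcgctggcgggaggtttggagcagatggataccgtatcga
LIG4: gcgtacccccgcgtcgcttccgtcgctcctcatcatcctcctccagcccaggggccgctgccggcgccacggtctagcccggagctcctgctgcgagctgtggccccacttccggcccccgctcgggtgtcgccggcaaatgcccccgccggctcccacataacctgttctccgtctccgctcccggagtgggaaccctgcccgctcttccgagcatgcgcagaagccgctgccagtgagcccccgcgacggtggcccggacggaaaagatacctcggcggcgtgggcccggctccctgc
RAD52: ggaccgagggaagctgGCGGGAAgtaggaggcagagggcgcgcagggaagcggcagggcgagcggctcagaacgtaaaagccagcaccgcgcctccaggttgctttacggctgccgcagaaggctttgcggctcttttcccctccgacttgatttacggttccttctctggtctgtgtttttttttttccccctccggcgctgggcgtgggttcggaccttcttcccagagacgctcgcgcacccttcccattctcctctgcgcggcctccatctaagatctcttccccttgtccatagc
RAD51C: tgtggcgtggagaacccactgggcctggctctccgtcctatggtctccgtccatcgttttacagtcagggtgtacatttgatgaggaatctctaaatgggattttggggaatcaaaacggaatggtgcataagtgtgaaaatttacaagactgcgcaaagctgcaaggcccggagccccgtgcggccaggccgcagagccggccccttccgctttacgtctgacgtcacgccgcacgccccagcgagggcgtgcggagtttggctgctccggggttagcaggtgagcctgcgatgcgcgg
MSH3: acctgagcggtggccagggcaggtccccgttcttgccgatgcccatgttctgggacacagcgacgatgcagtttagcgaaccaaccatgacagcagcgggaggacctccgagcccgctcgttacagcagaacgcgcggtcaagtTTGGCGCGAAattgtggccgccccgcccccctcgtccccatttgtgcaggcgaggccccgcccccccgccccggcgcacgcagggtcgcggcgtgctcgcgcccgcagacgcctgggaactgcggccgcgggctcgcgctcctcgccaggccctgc

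The 4 promoters of the genes with the largest fall each held 1 E2F match, and all 4 matches had the letters GCGGGAA. The match began 47 bases before the start in BRCA1, 21 bases before it in RAD51AP1, 60 in RAD51D and 2 in FANCD2. BRCA1 also held a CCAAT box 175 bases before the start and RAD51AP1 held its reverse complement, ATTGG, at 70 bases. Among the 4 that rose, RAD52 held an E2F match 234 bases before the start, and FANCB, LIG4 and RAD51C held neither an E2F match nor a CCAAT box. Of the 9, BRCA1 alone held matches to the GATA site, 2 of them. MSH3 held overlapping E2F matches on opposite strands, beginning 106 and 103 bases before the start.

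Over the 43 repair genes with a promoter entry, 26 (60.5%) held an E2F match, against 18.1% of 15843 coding genes with a window of the same length. In the lists of other repair genes described below, the share ran from 28.6% (other end joining) to 46.7% (base excision). The letters searched on both strands were GCGGGAA as well as GCGCGAA, together with GCGGCAA besides also GCGCCAA. The CCAAT box (CCAAT on either strand) was found in 21 (48.8%) against 35.3%, and the GC box (GGGCGG on either strand) in 33 (76.7%) against 62.4%. The CHR element (TTTGAA, or else TTTAAA, on either strand) was found in 9 (20.9%) against 17.7%. The GATA site (AGATAA, or else AGATAG, or else TGATAA, or else TGATAG, on either strand) was found in 5 (11.6%) against 17.8%. Median GC content was 64.3% in the repair genes' windows and 64.3% in all coding windows, and 3 of the 31 E2F matches overlapped a GC box. By direction, 10 of the 13 genes with a window that fell at least 2-fold held an E2F match, as did 20 of all 31 that fell, 3 of the 6 that rose and 3 of the 6 that did not pass. RAD54B, FANCI, WRN, RECQL4, NBN, XRCC5 and PRKDC had no promoter entry. A match is a description of letters and does not show a bound site.

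Repair mRNAs were mostly lower in the libraries labelled shHDAC5, but the size of the fall ranged widely and several genes went the other way. By edgeR's quasi-likelihood test, at an adjusted p under 0.05, 36 of the 50 fell, where 39.9% of all tested genes fell. Another 7 rose, where 44.8% of all tested genes rose, and 7 did not pass. By at least 2-fold, 15 fell (20.1% of all tested genes did) and 1 rose (26.4%). For 41 of the 50, every CPM value under one label lay outside the range under the other, as it did for 84.8% of all tested genes. Repair genes were more abundant than most, with a median average log2 CPM of 5.40 against 3.81. Among the 3790 tested genes with a level between the quartiles of the repair genes, 49.3% fell, 20.6% fell at least 2-fold and the median log2 fold change was -0.10, against -0.58 for the 50. In bulk RNA, fewer cells that carry an mRNA and less of it per cell cannot be told apart.

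**Figure D1:**
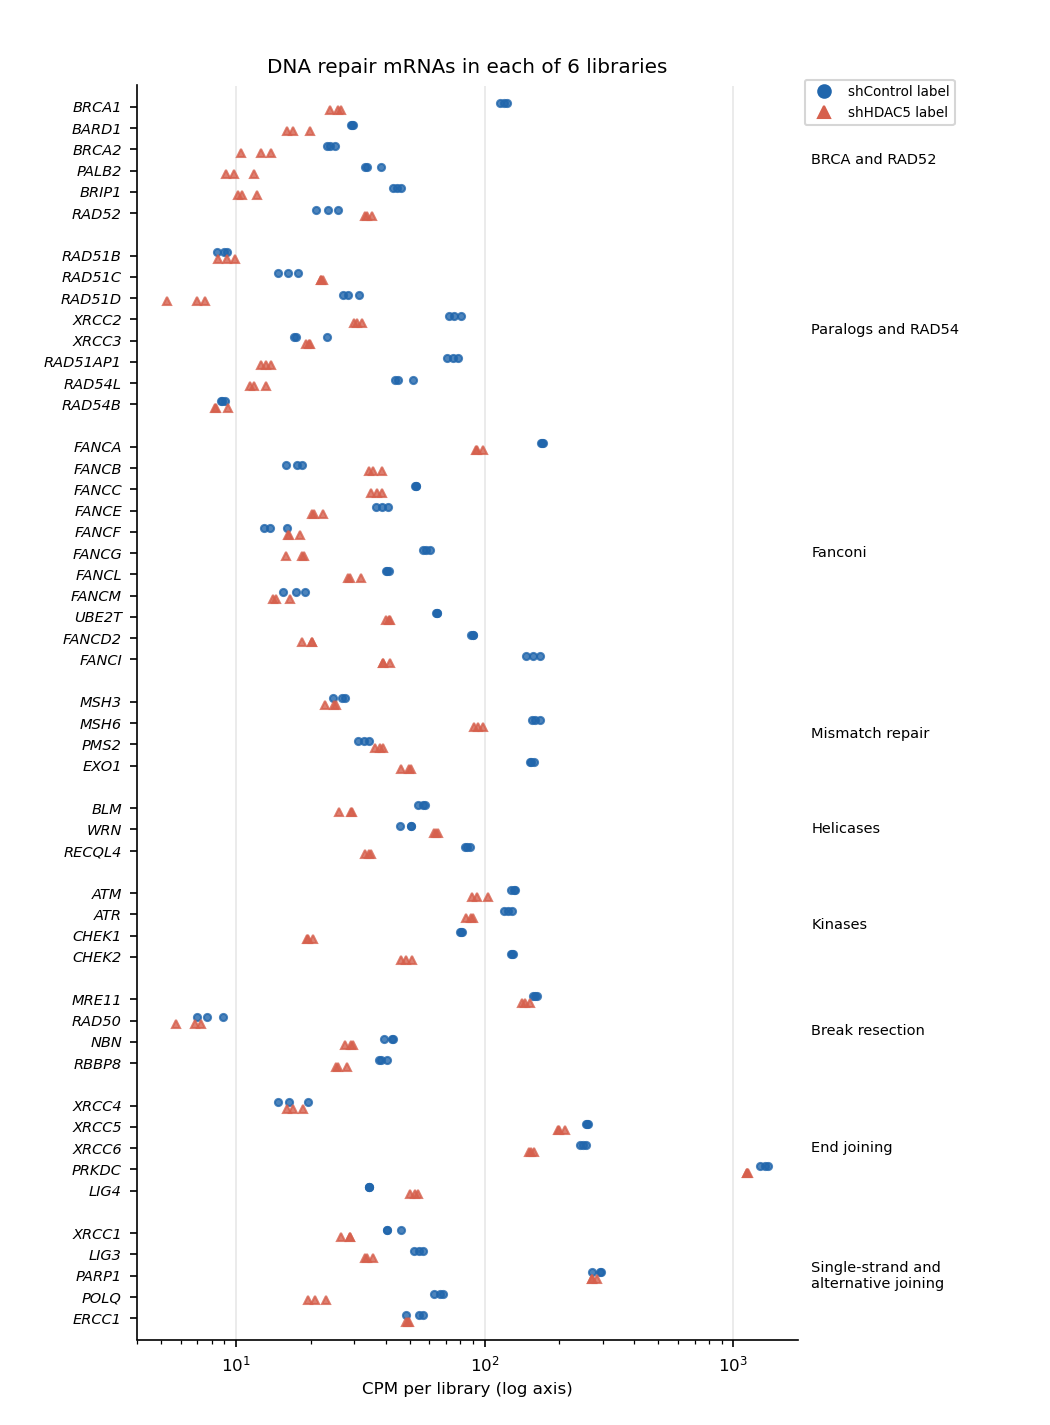
CPM (horizontal, log axis) of each of the 50 repair genes in the 3 libraries labelled shControl (blue circles) and the 3 labelled shHDAC5 (red triangles), ordered by role. Levels in the libraries labelled shControl ran from 7.84 CPM for RAD50 to 1335 CPM for PRKDC, and the groups overlapped for 9 of the genes.

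**Figure D2:**
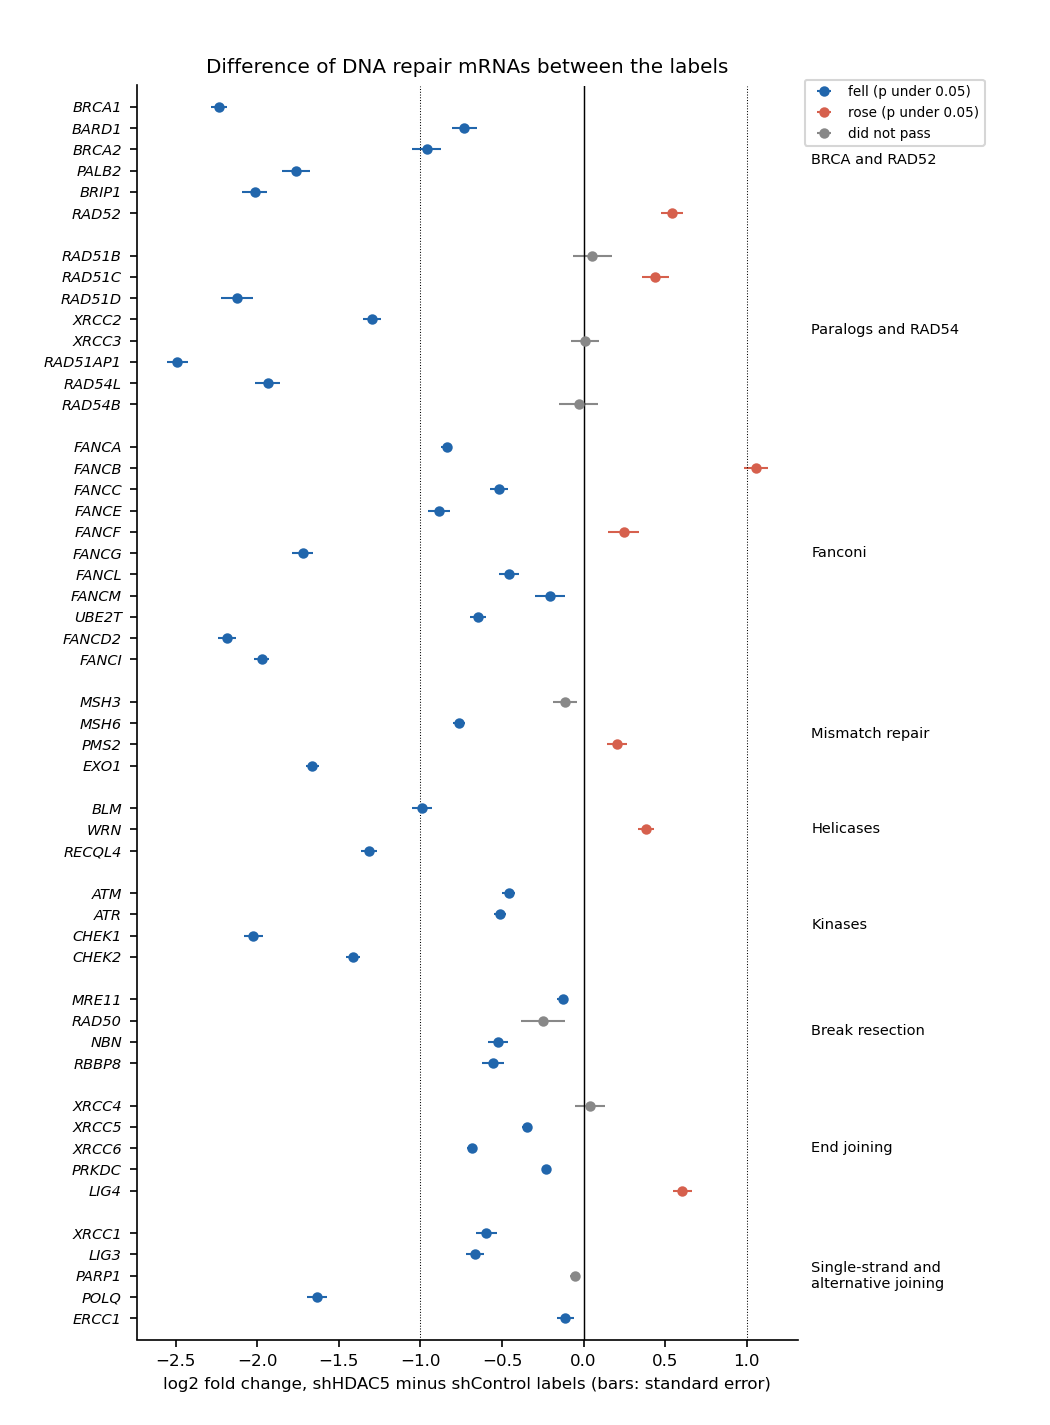
Log2 fold change (shHDAC5 minus shControl labels) of the same 50 genes, with bars of 1 standard error and dotted lines at a 2-fold change. The genes ran from RAD51AP1 at -2.49 to FANCB at 1.06, and most roles held both large and small differences.

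The summed level of the 50 mRNAs was 4976, 4887 and 4974 CPM in the libraries labelled shControl and 3384, 3354 and 3354 CPM in those labelled shHDAC5. Much of that sum came from PRKDC, which encodes the catalytic subunit of the DNA-dependent protein kinase, at 1335 ± 48.2 and 1137 ± 4.35 CPM (SD, n = 3 each). Per kilobase of the deposited gene length, shControl levels were highest for PRKDC (86.7 CPM per kb), XRCC6 (76.7), XRCC5 (47.2), UBE2T (39.0) and EXO1 (37.4). They were lowest for RAD50 (0.742), RAD51B (1.19), RAD54B (1.66), BRCA2 (1.88) and FANCM (2.04). The subunits of the kinase that opens classical end joining were thus listed well above the recombination mediators BRCA2 and RAD51B. These levels rest on the length in the table, which was 39184 bases for ATM and 18399 for PARP1.

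Of the genes around BRCA1 and BRCA2, 5 of 6 fell and 1 rose, with a median log2 fold change of -1.36. BRCA1 (ENSG00000012048, chromosome 17, 43044295 to 43170327, gene spans here and below from RefSeq, GRCh38.p14), the ubiquitin ligase that promotes resection and loads PALB2, had 124, 115 and 119 CPM in the libraries labelled shControl and 25.7, 26.6 and 23.9 CPM in those labelled shHDAC5. All 3 shHDAC5 libraries lay far below all 3 others (log2 fold change -2.23, standard error 0.0496, adjusted p = 1.30e-68). BARD1, its obligate partner in the ligase, fell by 0.73 on the log2 scale, from 29.3 ± 0.344 to 17.7 ± 2.01 CPM (SD, n = 3 each).

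PALB2, the bridge between BRCA1 and BRCA2, fell by 1.76 on the log2 scale (34.9 ± 2.87 to 10.3 ± 1.44 CPM, SD, n = 3 each), and BRCA2, a mediator of strand exchange, by 0.96 (24 ± 0.928 to 12.3 ± 1.67 CPM, SD, n = 3 each). The BRCA1-bound helicase BRIP1 fell by 2.02 (44.4 ± 1.66 to 11.0 ± 1.03 CPM, SD, n = 3 each). RAD52, a strand-annealing protein that can act without BRCA2, moved the other way. Its levels were 21.0, 23.4 and 25.8 CPM against 33.7, 35.4 and 33.2 CPM, with no overlap (log2 fold change 0.54, standard error 0.0701, adjusted p = 1.39e-11).

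The recombination paralogs RAD51B, RAD51C, RAD51D, XRCC2 and XRCC3, whose proteins form small complexes that assist strand exchange, split among themselves. RAD51D fell by 2.13 on the log2 scale, from 28.9 ± 2.17 to 6.60 ± 1.19 CPM (SD, n = 3 each), and XRCC2, its partner, by 1.30, from 75.7 ± 4.2 to 30.9 ± 1.15 CPM (SD, n = 3 each). RAD51C rose, with 14.8, 16.2 and 17.8 CPM against 22, 22.4 and 21.9 CPM (log2 fold change 0.44, standard error 0.0838, adjusted p = 1.3e-06). RAD51B had 8.43, 9.22 and 8.99 CPM against 9.22, 9.91 and 8.50 CPM, and its groups overlapped (log2 fold change 0.05, standard error 0.119, adjusted p = 0.685). XRCC3 had 17.5, 17.2 and 23.4 CPM against 19.7, 19.1 and 19.9 CPM, overlapping as well (log2 fold change 0.01, standard error 0.0863, adjusted p = 0.924). The RAD51D locus overlaps a readthrough gene, RAD51L3-RFFL, so its reads may be shared with that gene.

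The largest fall of all 50 was that of RAD51AP1 (ENSG00000111247, chromosome 12, 4538890 to 4560047), an accessory factor of strand invasion. It had 78.2, 70.7 and 74.5 CPM in the libraries labelled shControl and 13.9, 12.6 and 13.2 CPM in those labelled shHDAC5. Every library of the first group lay far above every library of the second (log2 fold change -2.49, standard error 0.0642, adjusted p = 1.88e-62). The motor protein gene RAD54L fell by 1.94 (46.6 ± 4.19 to 12.2 ± 0.938 CPM, SD, n = 3 each). Its relative RAD54B had 9.01, 8.80 and 8.69 CPM against 8.27, 9.33 and 8.33 CPM, with overlap (log2 fold change -0.03, standard error 0.121, adjusted p = 0.815).

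The Fanconi genes divide into a core ubiquitin ligase, the enzyme UBE2T that works with it, and its substrates FANCD2 and FANCI. Of the 11 measured, 9 fell and 2 rose, with a median of -0.65. The substrates had the largest falls of the group. FANCI (ENSG00000140525, chromosome 15, 89243979 to 89317259) had 167, 147 and 157 CPM against 39.1, 41.6 and 39.2 CPM (log2 fold change -1.97, standard error 0.0436, adjusted p = 8.43e-69). FANCD2 (ENSG00000144554, chromosome 3, 10026437 to 10101932) had 89.97, 88.2 and 89.5 CPM against 20.2, 20.2 and 18.5 CPM (log2 fold change -2.19, standard error 0.0555, adjusted p = 5.03e-63). In both, each library labelled shHDAC5 held less than any labelled shControl. FANCD2 has 2 named pseudogenes that could share its reads.

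Within the core complex the genes did not move together. FANCG fell by 1.72 (58.3 ± 2.05 to 17.7 ± 1.56 CPM), FANCE by 0.89 (38.8 ± 2.21 to 21.0 ± 1.13 CPM), FANCA by 0.84 (170 ± 1.62 to 94.7 ± 3.25 CPM), FANCC by 0.52 (52.9 ± 0.300 to 36.9 ± 1.97 CPM) and FANCL, the ligase subunit, by 0.46 (40.6 ± 0.549 to 29.6 ± 1.87 CPM), all with SD and n = 3 each. UBE2T fell by 0.65. FANCB (ENSG00000181544, chromosome X, 14689524 to 14873069), which sits beside FANCL in the core complex, rose: 17.7, 15.9 and 18.4 CPM against 34.2, 35.6 and 38.7 CPM. Its groups lay apart, and its log2 fold change of 1.06 (standard error 0.0737, adjusted p = 7.55e-26) was the only one of the 50 above 1. Without shControl replicate 2 it was 0.98, and without shHDAC5 replicate 3 it was 0.99.

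FANCF and FANCM were at the edge of the test. FANCF, an adaptor of the core complex, had 13.7, 13 and 16 CPM against 16.4, 16.1 and 18.2 CPM (log2 fold change 0.24, standard error 0.0935, adjusted p = 0.0126). Its groups were separated by less than the spread within them, and the adjusted p was 0.117 without shControl replicate 2, 0.118 without shHDAC5 replicate 3, 0.0664 without shControl replicate 1 and 0.0663 with no filter on low counts. FANCM, the translocase that anchors the complex on DNA, had 15.5, 17.5 and 19.0 CPM against 16.5, 14.1 and 14.5 CPM. These overlapped (log2 fold change -0.21, standard error 0.0922, adjusted p = 0.0317), and the adjusted p was 0.164 without shControl replicate 3, 0.114 without shHDAC5 replicate 2 and 0.0689 without shHDAC5 replicate 3. It was 0.0664 with RLE, 0.494 with upper-quartile and 0.812 with total-count scaling, and 0.0977 by DESeq2.

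In mismatch repair the exonuclease gene EXO1 and MSH6 fell, PMS2 rose, and MSH3 did not pass. EXO1 (ENSG00000174371, chromosome 1, 241847986 to 241889939), which also resects breaks, had 153, 159 and 153 CPM against 46.3, 50.4 and 49.8 CPM (log2 fold change -1.66, standard error 0.0409, adjusted p = 2.56e-64). MSH6, which recognises single mismatches, fell by 0.76 (161 ± 6.17 to 94.7 ± 3.88 CPM, SD, n = 3 each). MSH3, which recognises longer loops, had 26.7, 27.5 and 24.7 CPM against 25.2, 22.8 and 24.8 CPM. Its groups overlapped (log2 fold change -0.11, standard error 0.0730, adjusted p = 0.145), and without shControl replicate 3 the adjusted p was 0.0396. PMS2, the endonuclease subunit, had 31.0, 32.7 and 34.5 CPM against 38.9, 38.0 and 36.3 CPM (log2 fold change 0.21, standard error 0.0621, adjusted p = 0.00172). It has 15 named pseudogenes, so its value is uncertain.

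The RecQ helicases, which unwind recombination intermediates, also split. RECQL4 had 83.5, 87.1 and 84.7 CPM against 34.8, 33.2 and 34.4 CPM (log2 fold change -1.32, standard error 0.0498, adjusted p = 4.79e-47), and BLM fell by 0.99 (56.1 ± 1.82 to 28.2 ± 1.90 CPM, SD, n = 3 each). WRN, the helicase lost in Werner syndrome, had 50.8, 45.6 and 50.5 CPM against 62.9, 63.8 and 65.3 CPM. All 3 libraries labelled shHDAC5 were above the others (log2 fold change 0.38, standard error 0.05, adjusted p = 1.75e-11).

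All 4 checkpoint kinase genes fell, with log2 fold changes beyond -1 for both effector kinases and near -0.5 for both sensor kinases. CHEK1 (ENSG00000149554, chromosome 11, 125625136 to 125681124), which holds cells with stalled forks out of mitosis, had 81.0, 80.1 and 80.0 CPM against 20.4, 19.5 and 19.3 CPM. The libraries of each group were nearly level (SD 0.569 and 0.614 CPM, n = 3 each) and the groups lay far apart. Its log2 fold change was -2.02 (standard error 0.0567, adjusted p = 5.23e-59). CHEK2 fell by 1.41 (129 ± 0.960 to 48.5 ± 2.45 CPM, SD, n = 3 each), with 6 named pseudogenes that could share its reads. ATM, which responds to breaks, fell by 0.46 (131 ± 2.48 to 95.1 ± 7.11 CPM), and ATR, which responds to single-stranded DNA, by 0.51 (125 ± 4.54 to 87.4 ± 2.76 CPM, SD, n = 3 each). The difference between the kinases themselves was not tested.

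Of the 4 break resection genes 3 fell, none by 2-fold, with a median of -0.39. Of MRE11, RAD50 and NBN, whose proteins form the complex that first binds a break, NBN fell by 0.53 (41.5 ± 1.75 to 28.8 ± 1.12 CPM, SD, n = 3 each). MRE11 fell by 0.13 (160 ± 3.18 to 147 ± 5.51 CPM, SD, n = 3 each, adjusted p = 0.000337), but its log2 fold change was 0.01 with upper-quartile and 0.06 with total-count scaling. RAD50 was the lowest of the 50, with 8.88, 6.99 and 7.66 CPM against 6.86, 5.73 and 7.27 CPM, and its groups overlapped (log2 fold change -0.25, standard error 0.135, adjusted p = 0.0817). Without shControl replicate 2 its adjusted p was 0.0259, and without shHDAC5 replicate 3 it was 0.0371. RBBP8, which encodes CtIP, the cofactor of MRE11, had 38.2, 40.5 and 37.5 CPM against 27.9, 25.8 and 25.3 CPM, with no overlap (log2 fold change -0.56, standard error 0.0651, adjusted p = 2.63e-13).

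Classical end joining genes had a median of -0.23, and none changed by 2-fold. XRCC6, the smaller subunit of the Ku ring that caps DNA ends, had 249, 256 and 242 CPM against 159, 151 and 154 CPM (log2 fold change -0.69, standard error 0.0310, adjusted p = 2.57e-40). XRCC5, the larger subunit, fell by 0.35 (258 ± 1.75 to 202 ± 6.91 CPM, SD, n = 3 each), and PRKDC by 0.23. XRCC6 has 5 named pseudogenes. The ligase gene LIG4 (ENSG00000174405, chromosome 13, 108207442 to 108218349) rose, with 34.2, 34.2 and 34.4 CPM against 50.1, 52.4 and 54.1 CPM. Its shControl libraries were nearly level and all shHDAC5 libraries lay above them (log2 fold change 0.61, standard error 0.0565, adjusted p = 3.95e-18). XRCC4, the scaffold that holds this ligase, had 14.7, 19.6 and 16.3 CPM against 16.1, 16.9 and 18.7 CPM, with overlap (log2 fold change 0.04, standard error 0.0910, adjusted p = 0.690).

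In the last group POLQ stood apart from the single-strand repair genes. POLQ (ENSG00000051341, chromosome 3, 121431431 to 121545988), the polymerase of alternative end joining, had 66.0, 68.2 and 62.5 CPM against 20.8, 19.5 and 23 CPM, with a wide gap between the groups (log2 fold change -1.63, standard error 0.0607, adjusted p = 9.79e-48). The scaffold gene XRCC1 fell by 0.60 (42.5 ± 3.10 to 28.0 ± 1.28 CPM, SD, n = 3 each) and its ligase LIG3 by 0.66 (54.3 ± 2.25 to 34.2 ± 1.253 CPM, SD, n = 3 each). PARP1, which senses strand breaks, had 270, 292 and 293 CPM against 283, 271 and 270 CPM, and its groups overlapped. Its log2 fold change was -0.05 (standard error 0.0291, adjusted p = 0.0815), but it was 0.09 with upper-quartile and 0.13 with total-count scaling, and without shControl replicate 1 or shHDAC5 replicate 1 the adjusted p was 0.000718 and 0.00997. ERCC1, a nuclease subunit, was at 53.1 ± 4.23 and 49.3 ± 0.687 CPM (SD, n = 3 each), with overlap. Its log2 fold change of -0.11 (adjusted p = 0.0448) became 0.03 with upper-quartile and 0.07 with total-count scaling, and the adjusted p without 1 library reached 0.194 (shControl replicate 3), 0.0870 (shHDAC5 replicate 2) and 0.0690 (shControl replicate 1). It was 0.146 with RLE scaling and 0.148 by DESeq2.

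Count ratios of genes whose proteins share a complex do not depend on scaling between libraries. Of 13 such pairs, 11 had ratios that did not overlap between the groups, and in 1 of them the ratio changed by over 2-fold. Single genes did not overlap in 84.8% of all those tested, and other pairs of genes were not compared, so nothing particular to partners is read from the count. With 3 libraries against 3, an exact two-sided permutation test cannot go below 0.1, which these 11 reached (0.118 after Benjamini-Hochberg adjustment over the 13). BRCA1 to BARD1 had ratios of 4.26, 3.89 and 4.05 in the libraries labelled shControl and 1.51, 1.66 and 1.20 in those labelled shHDAC5. All 3 of the latter lay below all 3 of the former, with means of 4.07 ± 0.189 and 1.46 ± 0.234 (SD, n = 3 each). Counts grow with gene length, so a ratio is compared here between libraries only.

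PALB2 to BRCA2 had ratios of 1.45, 1.53 and 1.38 against 0.859, 0.864 and 0.779, again with no overlap. RAD51D to XRCC2 went from 0.383 ± 0.0491 to 0.215 ± 0.0443, XRCC3 to RAD51C from 1.18 ± 0.126 to 0.885 ± 0.0313 and RAD51B to RAD51C from 0.548 ± 0.0371 to 0.416 ± 0.0269 (SD, n = 3 each). FANCD2 to FANCI, the clamp of the Fanconi pathway, differed by less, at 0.539, 0.598 and 0.571 against 0.516, 0.484 and 0.472. FANCL to UBE2T went from 0.631 ± 0.0126 to 0.720 ± 0.0420 and NBN to MRE11 from 0.259 ± 0.0152 to 0.197 ± 0.0114 (SD, n = 3 each). The Ku subunits XRCC5 to XRCC6 went from 1.04 ± 0.0337 to 1.31 ± 0.0218, LIG4 to XRCC4 from 2.06 ± 0.290 to 3.03 ± 0.117 and MSH3 to MSH6 from 0.164 ± 0.0141 to 0.257 ± 0.0225 (SD, n = 3 each). RAD50 to MRE11 and LIG3 to XRCC1 overlapped between the groups (exact permutation p = 0.5 and 0.4).

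**Figure D3:**
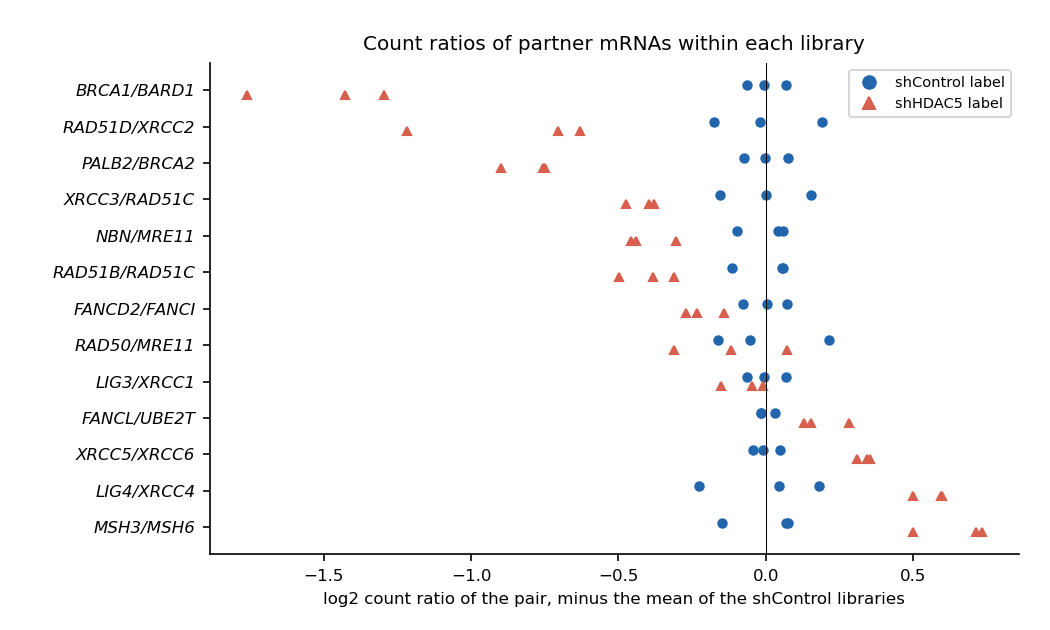
Log2 count ratio of 13 partner pairs in each library, minus the mean of the libraries labelled shControl, with shControl as blue circles and shHDAC5 as red triangles. BRCA1/BARD1 lay farthest from 0 in the libraries labelled shHDAC5, and RAD50/MRE11 and LIG3/XRCC1 overlapped between the groups.

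Repair genes outside the 50 were read from lists of nucleotide and base excision, other recombination and end joining genes, break signalling, translesion synthesis and direct reversal. Of these 109 genes 68 (62.4%) fell and 29 rose, while 12 did not pass. Their median log2 fold change was -0.34. Among all tested genes 39.9% fell and 44.8% rose, and among those at the level of the 50, 49.3% fell. These shares stand beside the counts of each list below, and no list was tested as a set. In base excision repair, 13 of 19 fell and 5 rose. The smallest adjusted p belonged to UNG, which removes uracil (log2 fold change -2.43, 156 ± 4.05 to 29.0 ± 0.609 CPM), and the flap nuclease gene FEN1 (-1.93). In nucleotide excision repair 10 of 17 fell and 5 rose, and the genes with the smallest adjusted p were ones that rose: CETN2, which encodes a subunit of the damage sensor (log2 fold change 1.51, 32.1 ± 0.861 to 91.2 ± 1.22 CPM), and the helicase gene ERCC2 (log2 fold change 1.20, 61.4 ± 2.49 to 142 ± 3.54 CPM). SD are over n = 3 each.

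Among 26 other recombination genes 17 fell and 6 rose. The nuclease scaffold gene SLX4, itself a Fanconi gene, rose by 1.73 on the log2 scale (40.9 ± 1.23 to 135 ± 3.01 CPM, SD, n = 3 each), and EME1, a nuclease subunit, fell by 2.12 (66.9 ± 0.852 to 15.4 ± 0.892 CPM, SD, n = 3 each). In break signalling 14 of 23 fell and 6 rose, with WEE1, the kinase that holds cells in G2, at -2.15, TOPBP1, an activator of ATR, at -1.47, and HUS1, a clamp subunit, at 1.34. In translesion synthesis 8 of 14 fell and 6 rose, among the latter MAD2L2 at 1.11 and WDR48 at 0.80. Of the other end joining genes 4 of 7 fell and 1 rose (POLM, 0.64), and of the direct reversal genes ALKBH2 (-0.69) and ALKBH3 (-0.58) fell while the other of 3 did not pass.

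Cell cycle genes fell in the same libraries. All 22 S phase genes fell, 18 of them at least 2-fold, with a median of -1.54, and all 19 mitosis genes fell with a median of -2.15. The helicase gene MCM7 went from 375 ± 5.69 to 67.4 ± 3.5 CPM and the proliferation marker MKI67 from 448 ± 25.2 to 72.6 ± 0.636 CPM (SD, n = 3 each). Of 19 E2F, pocket protein and partner genes 14 fell and 3 rose, with MYBL2 at -2.53, FOXM1 at -3.62, E2F4 at 0.32 and LIN37 at 1.97. An E2F match stood in the promoter windows of 17 of 19 S phase genes and 3 of 15 mitosis genes, and a CHR match in 2 and 12 of them. The part of the cell cycle genes' difference in that of the repair genes was not tested.

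**Figure D4:**
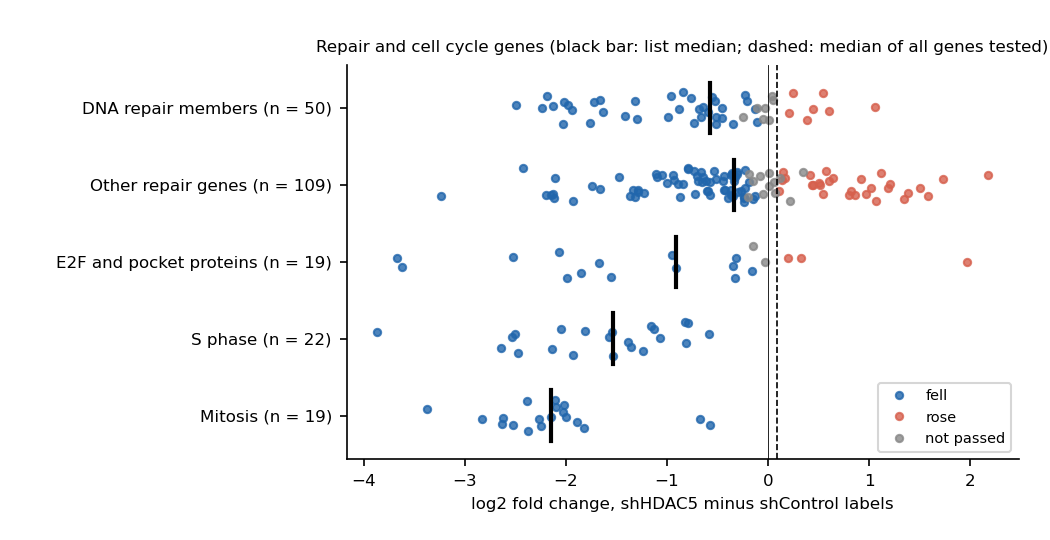
Log2 fold change (horizontal) of the 50 repair genes, 109 other repair genes and lists of E2F, S phase and mitosis genes, 1 point per gene, with list medians as black bars and the median of all tested genes dashed at 0.09. The medians were -0.58, -0.34, -0.91, -1.54 and -2.15 from top to bottom, and no S phase or mitosis gene lay above 0.

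Other values moved with the labels too. Under the shControl label 25775 to 26078 genes were detected with at least 1 count per library, and under the shHDAC5 label 33115 to 33632. The TMM scaling factors were 0.929 to 0.944 and 1.06 to 1.07. The 13 mitochondrially encoded mRNAs took 4.79% to 4.82% of counts under the shControl label and 5.48% to 5.63% under the shHDAC5 label. Leukocyte and endothelial markers were low. The 5 leukocyte markers summed to 3.20 to 4.19 CPM against 5.14 to 6.32 CPM, and the 5 endothelial markers to 1.21 to 1.48 against 3.58 to 4.18 CPM. PTPRC and PECAM1 were under 1 CPM in every library. In each of these lists 2 markers were tested, of which 1 rose and 1 did not pass. The risers were CD14 (0.0667 to 1.70 CPM) and VWF (0.238 to 2.26 CPM). The 7 fibroblast markers were not all low, and summed to 121 to 131 against 85.8 to 90.9 CPM. Most of that sum was COL1A1, at 92.3 and 79.6 CPM, with PDGFRB at 29.6 and 6.59 CPM. Of the 4 fibroblast markers tested, 3 fell and 1 rose (COL3A1, 0.915 and 1.51 CPM). The part of these in the repair genes' differences was not tested.

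Some repair genes start head to head with another coding gene, and this comparison was chosen after the data were seen. Of 14 repair genes with a coding start on the other strand within 1 kb, 11 had a neighbour that was tested. Both genes fell in 4 such pairs, both rose in 2 and they went opposite ways in 2 (ATM, and MRE11, whose sign depended on the scaling), while in 3 at least 1 of them did not pass. FANCB (log2 fold change 1.06) and MOSPD2 (0.87), which start 352 bases apart, both rose, as did LIG4 (0.61) and ABHD13 (0.21), which start 43 bases apart. ATM fell by 0.46 while NPAT, a histone gene activator 429 bases away, rose by 0.20 (adjusted p = 0.00184). PALB2 fell by 1.76 and DCTN5 by 0.49, and CHEK2 by 1.41 and HSCB by 0.47, so in both the repair gene had the larger fall. XRCC6 (-0.69) had a smaller fall than DESI1 (-1.39). BRCA1 and NBR1 (-0.35) start 82 bases apart only at a distant start listed for BRCA1.

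PRKDC lies 804 bases from MCM4, a replicative helicase gene, whose log2 fold change was -1.36 where that of PRKDC was -0.23. In all, 32 of the 50 repair genes overlap another RefSeq gene, and the strand setting of the counting is unknown here, so reads may be shared or lost there.

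**Figure D5:**
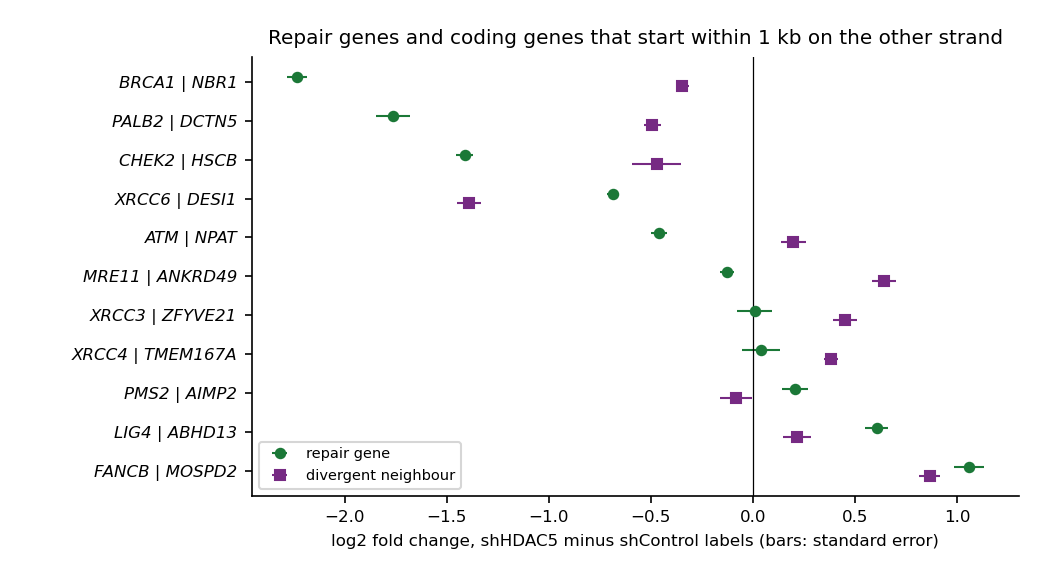
Log2 fold change with standard error of 11 repair genes (green circles) and of the coding genes that start within 1 kb on the other strand (purple squares). FANCB and MOSPD2 lay above 0 together, and ATM lay below 0 with its neighbour NPAT above it.

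GATA1 peaks were deposited as 1 list per treatment, so no test between treatments was possible, and the line (PANC-1) was not that of the RNA. Names inside the lists go against their labels: peaks in the list labelled shControl carry SAHA in their names, and those in the list labelled shHDAC5 carry NC, which sample titles use for the control. A summit lay within 1 kb of a listed start for 15 of 43 repair genes (34.9%) in the list labelled shControl, where 49.7% of coding genes had one. In the list labelled shHDAC5 it was 12 (27.9%), where 25.6% of coding genes had one. RAD51D, FANCC, FANCE, FANCG and MSH3 had a summit in both. By direction in the RNA, 12 of 31 genes that fell, 2 of 6 that rose and 1 of 6 that did not pass had a summit in the first list, and 10, 1 and 1 in the second.

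Few of these peaks passed a stricter threshold. Within 1 kb of a listed start, MSH3 alone had a summit at q of at most 0.05 (1 of 43, where 6.27% of coding genes had one in that list). The peak lay at chr5:80654067-80654557 in the list labelled shControl, with its summit 342 bases before the start, an authors' fold enrichment of 4.36 and −log10 q of 1.80. It overlaps the upstream end of the MSH3 window printed above, which holds no GATA match. The summit lies upstream of that window, where no letters were searched, so a GATA site at the summit was not looked for. BRCA1 (2.67-fold, at the distant start), RAD51D (2.39), FANCA (3.51) and LIG4 (2.39) had peaks in the same list, and BARD1 (3.37), BRIP1 (1.71) and POLQ (2.56) in the list labelled shHDAC5, none of them at that q (the folds are the authors' own). Inside the spans of the 50 genes, MSH3 and ATM each held 1 further summit at that q in the list labelled shControl, over 1 kb from any listed start. RAD51AP1 had no peak across its 21.2 kb in either list, and neither had FANCB across 184 kb.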

How the data were processed

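Whole-number read counts per Ensembl gene and a gene length in bases were deposited by the authors without normalization, per the file headers. Per the submitters' processing notes, the tools included featureCounts 2.0.1 and MACS2 2.2.7.1, next to fastp 0.23.2, FastQC 0.11.9 and deepTools 3.5.0, with build hg38 and no roles. Not given in the sources used here: aligner, annotation release, strand setting, and any pooling of replicates before peak calling. Each deposited peak list gives the authors' fold enrichment as a ratio and their −log10 q per peak, for 1 list per treatment. Inputs were not analysed here.

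Symbols were found for 61369 of 61541 gene IDs. Genes past edgeR's filter, with TMM factors, went into edgeR 4.0.16 (R 4.3.3, limma 3.58.1, quasi-likelihood test on group alone, Benjamini-Hochberg adjustment over all 19181 genes, threshold 0.05). CPM use TMM-scaled library sizes. Log2 fold changes came from the edgeR fit, and each standard error was obtained by dividing the log2 fold change by the root of F. A prior count of 2 was used for the log2 CPM behind the deviations of libraries and an alternative for the partner ratios. The fit was tested on simulated data. Libraries of 1 group differed by more than sampling noise (chi-square per gene 1.57 to 2.07), so none was a plain copy of another. This does not show whether they came from separate cultures.

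Partner ratios use raw counts and exact two-sided permutation tests, run in R. Peaks, promoters, neighbours and figures were handled in Python 3.11.15 (scipy 1.17.1, pandas 2.3.3, matplotlib 3.10.9). Promoter windows came from RefSeq (GRCh38.p14). Where a gene lists several starts, the window with the most CG dinucleotides was used, a choice made after the data were seen. A peak counted where its summit lay within 1 kb of any listed start.

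The 50 genes and the lists beside them were chosen with earlier results of these data known. Values in every library are given for the gene with the smallest adjusted p and the one with the largest change in each role, and for each that rose or did not pass. FANCM, ERCC1 and PRKDC were added because of their values. From the other repair and cell cycle lists at most the 2 genes with the smallest adjusted p and the 2 with the largest rise are named, and MCM4 as a neighbour. Some results are not reported here. Alternatives were DESeq2 1.42.0, other scalings, filters, thresholds and peak windows, the replicate number as a block, and leaving out each library.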

Additional observations from a re-analysis of the deposited data

How the results depend on the processing

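Across the alternatives 33 to 37 of the 50 repair genes fell and 6 to 10 rose, and 40 to 44 were called in all. DESeq2 called 34 that fell and 7 that rose. MRE11 had a log2 fold change of 0.0135 with upper-quartile and 0.0568 with total-count scaling, PARP1 0.0872 and 0.130, and ERCC1 0.0296 and 0.0729, against -0.13, -0.05 and -0.11 with TMM. These scalings also moved the median of all tested genes to 0.23 and 0.27, and the share of called genes that fell from 47.1% to 41.9% and 40.4%. Leaving out each library in turn gave 0 to 1 repair genes that rose at least 2-fold. With the replicate number as a replicate block, 42 repair genes were called (7 rose and 35 fell), and only ERCC1 was lost (adjusted p = 0.0587, edgeR). Deviations of same-numbered libraries correlated at -0.0126, 0.00258 and 0.00593 across genes, so the numbers were not taken as pairs. XRCC3 and XRCC4 were among the 10 that rose with total-count scaling (adjusted p = 0.0311 and 0.0193, edgeR), and 8 rose with upper-quartile scaling. PARP1, whose sign depended on the scaling, passed with no filter on low counts (adjusted p = 0.0141, edgeR). At an adjusted p under 0.01, FANCF, FANCM and ERCC1 were lost.

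At q of at most 0.05, 1 repair gene had a peak in the shControl list and 0 did in the shHDAC5 list. At a fold enrichment of at least 5 both counts were 0. Within 5 kb of a start, the counts were 21 (48.8%, against 63.8% of coding genes) and 24 (55.8%, against 61.2%), so in the second list the share lay below that of coding genes at 5 kb and above it at 1 kb. RAD54B, RAD50 and RAD51B, with 346 to 481 counts per group, had the largest standard errors of the 50 (0.119 to 0.135 on the log2 scale).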
